A study of Rattus norvegicus with 6 samples.

Results

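Voltage-gated calcium channel subunit genes were compared between brains of SPORTS rats and wild type rats, starting from a list of 10 member genes: Cacna1a, Cacna1b, Cacna1c, Cacna1d, Cacna1e, Cacna1g, Cacna1h, Cacna2d1, Cacnb4 and Cacng3. The genes were chosen by name, and every array probe whose transcript accession belongs to a member was kept, which gave 14 probes for 9 of the 10 genes, out of 18005 probes for 15168 genes named in this way. For Cacna1d no probe carried an accession that the gene list pairs with it, so it was not analysed here. The SPORTS group held 3 male rats of the SPORTS genotype, a hyperactive mutant line with Wistar as its background strain. The wild type group held 3 male Wistar rats of wildtype genotype. All 6 rats were 15 weeks old and sedentary, and each gave brain RNA for 1 single-colour array. The labels give no brain region, no treatment and no named allele.

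Voltage-gated calcium channels open when the membrane depolarises and let calcium into the cell, where it starts transmitter release, shapes firing and signals to the nucleus. A pore-forming alpha-1 subunit (the Cacna1 genes) sets the current type, and high-voltage channels carry in addition an intracellular beta subunit (Cacnb) and an extracellular alpha-2-delta subunit (Cacna2d). The gamma subunits (Cacng) were named after a muscle channel subunit, but several of them, Cacng3 included, are better known in brain as partners of AMPA-type glutamate receptors.

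Promoters are shown for 3 genes that differ in their result: Cacng3, the one member that passed the test, Cacna1e, the member with the largest difference, which did not pass, and Cacnb3, a beta subunit gene outside the member list with a smaller p than any member. Each runs from 250 bases before to 50 bases after the gene's start in RefSeq, build GRCr8, 5′ to 3′, with capitals marking the GC box letters GGGCGG on either strand.
Cacng3 (chr1:186632312-186632611, plus strand): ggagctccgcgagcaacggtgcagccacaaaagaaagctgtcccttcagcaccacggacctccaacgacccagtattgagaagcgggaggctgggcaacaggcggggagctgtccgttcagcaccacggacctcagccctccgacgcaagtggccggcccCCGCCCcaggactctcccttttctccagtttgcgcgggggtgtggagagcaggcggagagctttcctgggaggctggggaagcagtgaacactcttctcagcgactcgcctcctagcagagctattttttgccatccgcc
Cacna1e (chr13:69444761-69445060, minus strand): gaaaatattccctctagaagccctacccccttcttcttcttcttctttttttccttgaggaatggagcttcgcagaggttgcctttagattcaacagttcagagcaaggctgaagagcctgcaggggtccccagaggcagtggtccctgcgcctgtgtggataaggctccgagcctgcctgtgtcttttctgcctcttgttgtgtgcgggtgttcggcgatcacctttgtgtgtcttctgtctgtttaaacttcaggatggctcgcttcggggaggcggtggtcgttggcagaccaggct
Cacnb3 (chr7:131666301-131666600, plus strand): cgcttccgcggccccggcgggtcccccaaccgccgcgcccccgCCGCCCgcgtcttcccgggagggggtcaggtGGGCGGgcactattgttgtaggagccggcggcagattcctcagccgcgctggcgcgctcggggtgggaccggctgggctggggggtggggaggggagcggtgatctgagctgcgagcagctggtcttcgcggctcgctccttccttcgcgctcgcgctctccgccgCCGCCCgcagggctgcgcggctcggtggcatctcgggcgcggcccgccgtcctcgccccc
The promoter table held 7 of the 10 member genes, and 5 of these 7 had at least 1 GC box in a listed promoter. Counted by promoter, 7 of the 9 member promoters held a GC box. Cacng3 had 1 GC box, Cacna1e had 0 and Cacnb3 had 3, and their GC contents were 63%, 53.7% and 77.7% in the same order. The median GC content of all promoters of this length was 51.7%. Of all 33469 promoters of this length, 33.1% held a GC box and 1.83% the cyclic AMP response element TGACGTCA, which none of the member promoters held. A match is a match of letters only.

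On the arrays, members of the family had nearly the same signal in both lines. Of the 14 member probes 1 was lower in SPORTS, the probe of Cacng3, and 0 were higher (limma moderated test, adjusted p threshold 0.05). Across all 20659 tested probes 21.1% were called, with 11.1% higher and 10.1% lower, against which the member count does not stand out. At an unadjusted p under 0.05, 2 member probes were lower and 0 higher, where 7155 of all 20659 tested probes passed in either direction. The median difference, SPORTS minus wild type, was -0.07 on the log2 scale over the 14 probes and -0.002 over all tested probes, and the median size of a difference was 0.07 and 0.11. All 14 probes were well above background on all 6 arrays, and none had a saturated spot. For 13 of them, and for 16191 of all 20659 tested probes, the 95% interval of the difference lay within 0.5 log2 units of 0. That is 1.41-fold in either direction, so larger changes on these 13 member probes were not seen at the precision of 6 arrays. The exception among the members was Cacna1e, whose interval reached 1.04. Signals below are normalised log2 values, with 0 at the 75th percentile of an array, and they compare arrays within 1 probe, not probes with each other.

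**Figure D1:**
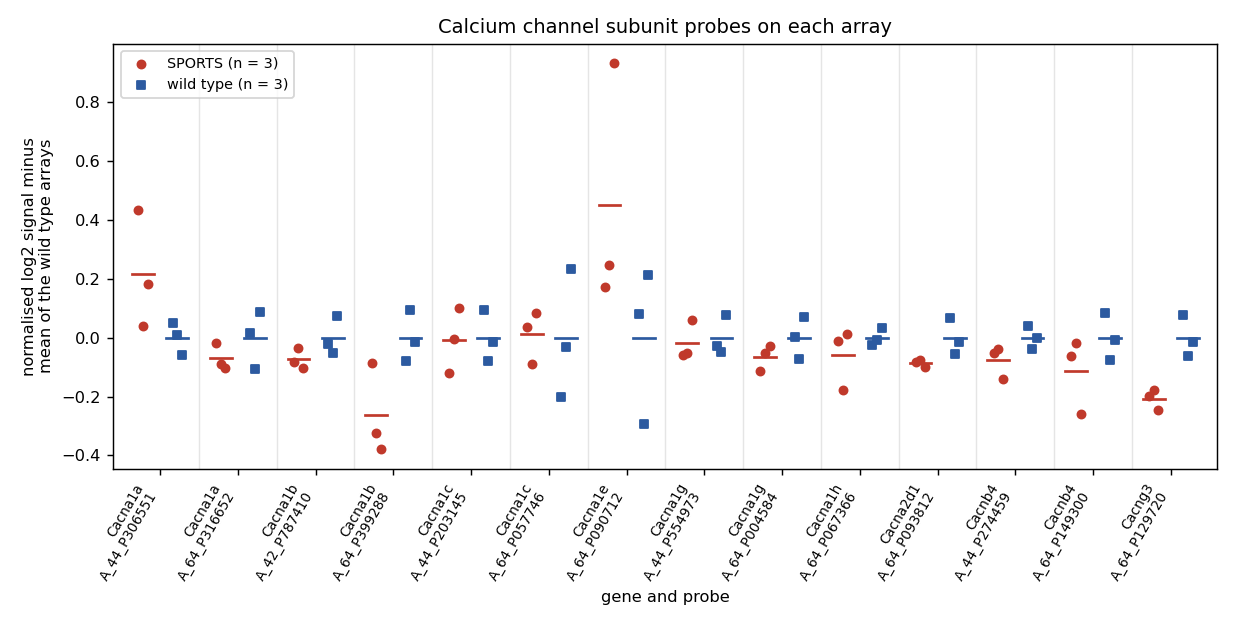
Normalised log2 signal of each member probe on each array, drawn as the distance from the mean of the wild type arrays. Red circles are the 3 SPORTS arrays and blue squares the 3 wild type arrays, with short lines at the group means. The groups stand apart without overlap for Cacna2d1, Cacng3 and 1 probe of Cacna1b, and SPORTS replicate 3 is the highest point for Cacna1e.

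The presynaptic pore subunits were close to equal in both lines. Cacna1b, the pore of the N-type channel that triggers release at many nerve terminals, had 2 probes for different transcript accessions. Its probe A_42_P787410, printed as 10 spots per array, read 0.99, 1.04 and 0.97 in SPORTS and 1.05, 1.02 and 1.15 in wild type. These groups overlapped, with a difference of -0.07 ± 0.05 (SE, adjusted p = 0.328). The other Cacna1b probe, A_64_P399288, was much dimmer and read -4.44, -4.68 and -4.74 in SPORTS, against -4.44, -4.27 and -4.37 in wild type. Here every SPORTS array lay below every wild type array, although the closest pair was nearly equal, and the difference of -0.26 ± 0.09 did not pass (adjusted p = 0.0991). It passed in 2 of 17 processing alternatives, with normexp background correction (-0.18, adjusted p = 0.0219) and without SPORTS replicate 1 (-0.35, adjusted p = 0.0330), and over all alternatives the adjusted p ran up to 0.349.

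Cacna1a encodes the pore of the P/Q-type channel, which is abundant in cerebellar Purkinje cells and at fast central synapses. Its probe A_64_P316652 read -1.26, -1.33 and -1.34 in SPORTS and -1.22, -1.35 and -1.15 in wild type, with overlapping groups (difference -0.07 ± 0.06, adjusted p = 0.473). The dim probe A_44_P306551 pointed the other way, at -4.20, -4.59 and -4.45 in SPORTS and -4.58, -4.62 and -4.69 in wild type (0.22 ± 0.10, adjusted p = 0.202). The highest of these values belonged to SPORTS replicate 1. Without that array the difference was 0.11 (adjusted p = 0.328). The same array held the highest summed signal of 9 tested cerebellar markers, 2.92 on the log2 scale, against 2.32 and 2.47 in the other SPORTS arrays and 2.36 to 2.46 in wild type. Gabra6, a receptor subunit gene of cerebellar granule cells, was above background on that array alone. Pcp2, a Purkinje cell gene, read -0.51 there, against -3.56 and -3.58 in the other SPORTS arrays and -3.75 to -3.54 in wild type, and Car8, also of Purkinje cells, read 0.34 there, against -1.47 and -1.43 in the other SPORTS arrays and -1.59 to -1.45 in wild type. Of the 9 cerebellar markers 1, Barhl1, was higher and 0 lower. Barhl1 was well above background on 3 SPORTS arrays and 1 wild type array, so it was tested through the SPORTS group alone. Among probes well above background on all 6 arrays, 0 of 8 cerebellar markers were called. In the block fit for slide row 0 of the 9 were called, and 1 was higher and 0 lower at an unadjusted p under 0.05. The part of cerebellar RNA in the Cacna1a values was not tested.

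Cacna1e, the pore of the R-type channel, had the largest difference of any member probe and the least certain one. It read -3.16, -3.08 and -2.40 in SPORTS, against -3.25, -3.63 and -3.12 in wild type. SPORTS replicate 3 was the highest array, and SPORTS replicate 1 lay within the wild type range, so the groups overlapped. The difference of 0.45 ± 0.24 (1.37-fold, 95% interval -0.14 to 1.04) did not pass (adjusted p = 0.243). It was 0.21 without SPORTS replicate 3, 0.24 when slide row was fitted as a block and 0.30 without wild type replicate 2, and no alternative brought it past the threshold (adjusted p from 0.203 to 0.723).

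The L-type pore subunit gene Cacna1c, whose channels signal from dendrites and cell bodies to gene transcription, did not differ by more than the spread between rats. Its probe A_44_P203145, with 10 spots per array, read -1.79, -1.67 and -1.57 in SPORTS and -1.58, -1.75 and -1.68 in wild type. The groups overlapped fully, and the difference was -0.01 ± 0.07 (95% interval -0.19 to 0.17, adjusted p = 0.954). Its dim second probe A_64_P057746 differed by 0.01 ± 0.12 (adjusted p = 0.959), with SPORTS arrays from -4.83 to -4.66 and wild type arrays from -4.94 to -4.51.

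The T-type pore subunits open near the resting potential and drive burst firing, Cacna1g foremost in thalamic relay cells. Probe A_64_P004584 of Cacna1g read -0.62, -0.55 and -0.53 in SPORTS and -0.50, -0.58 and -0.43 in wild type (difference -0.07 ± 0.05, adjusted p = 0.419), and the groups overlapped. The other Cacna1g probe, A_44_P554973, differed by -0.02 ± 0.05 (adjusted p = 0.863). Over the same arrays the summed signal of 4 tested thalamic markers was 2.52, 2.89 and 3.12 in SPORTS and 2.27 to 2.51 in wild type. Of the thalamic markers 1 was called, Slc17a6, a glutamate transporter gene of thalamus and other subcortical regions (0.90 ± 0.15, adjusted p = 0.0116). When slide row was fitted as a block, 0 of the 4 were called, with a median difference of 0.33, against 0.29 in the reported fit. Cacna1h read 0.45, 0.28 and 0.47 in SPORTS and 0.43, 0.45 and 0.49 in wild type, and SPORTS replicate 2 was the low array. Its difference was -0.06 ± 0.06 (adjusted p = 0.548).

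Among the auxiliary subunits, Cacna2d1 encodes the alpha-2-delta protein that carries channels to the membrane and binds gabapentin. It read 2.13, 2.13 and 2.11 in SPORTS, against 2.28, 2.16 and 2.20 in wild type. Every SPORTS array was below every wild type array, but the difference of -0.09 ± 0.04 (1.06-fold) did not pass (adjusted p = 0.215). Groups that do not overlap were common on these arrays, at 41.9% of tested probes in either direction and 20.5% with SPORTS below and 21.4% with SPORTS above, and among the 14 member probes there were 3, all with SPORTS below. Cacnb4, a beta subunit gene prominent in cerebellum and thalamus, read 0.98, 1.03 and 0.79 in SPORTS and 1.13, 0.97 and 1.04 in wild type with probe A_64_P149300 (-0.11 ± 0.08, adjusted p = 0.368). The second Cacnb4 probe, A_44_P274459, differed by -0.08 ± 0.04 (adjusted p = 0.285). Of the 5 member genes with 2 probes, 3 had the same sign on both, Cacnb4 among them, and Cacna1a and Cacna1c did not.

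Cacng3 was the 1 member called. It encodes a transmembrane AMPA receptor regulatory protein that is found mainly in cortex and hippocampus. The 3 SPORTS arrays read -0.12, -0.10 and -0.17, against 0.15, 0.01 and 0.06 in wild type, so that all SPORTS arrays lay below all wild type arrays. Cacng3 averaged -0.13 ± 0.03 in SPORTS and 0.07 ± 0.07 in wild type (SD, n = 3 each). The difference was -0.21 ± 0.05 (SE, 95% interval -0.33 to -0.09), a 1.15-fold fall (limma adjusted p = 0.0326). The call is fragile. Among the 17 alternatives, the deposited table differs from the reported signal only by a constant for each array. Its fit repeats the reported one, so its pass is no separate check. The difference stayed between -0.24 and -0.17 in all 17 alternatives, but the adjusted p was under 0.05 in 9 of them and not in 8, and ran from 0.00998 to 0.197. It ended without any 1 array but wild type replicate 2 (adjusted p from 0.0664 to 0.104), without the filter on dim probes (0.0917), when slide row was fitted as a block (-0.19, adjusted p = 0.197) and among the arrays of slide row 2 (-0.19, adjusted p = 0.139). In that block fit 0 of the 14 member probes were called, and of all tested probes 7.73% were, with 3.58% higher and 4.14% lower. All SPORTS arrays and wild type replicate 3 lay in row 2 and the other wild type arrays in row 1 of the same slide, so the difference within row 2 rests on 1 wild type array.

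**Figure D2:**
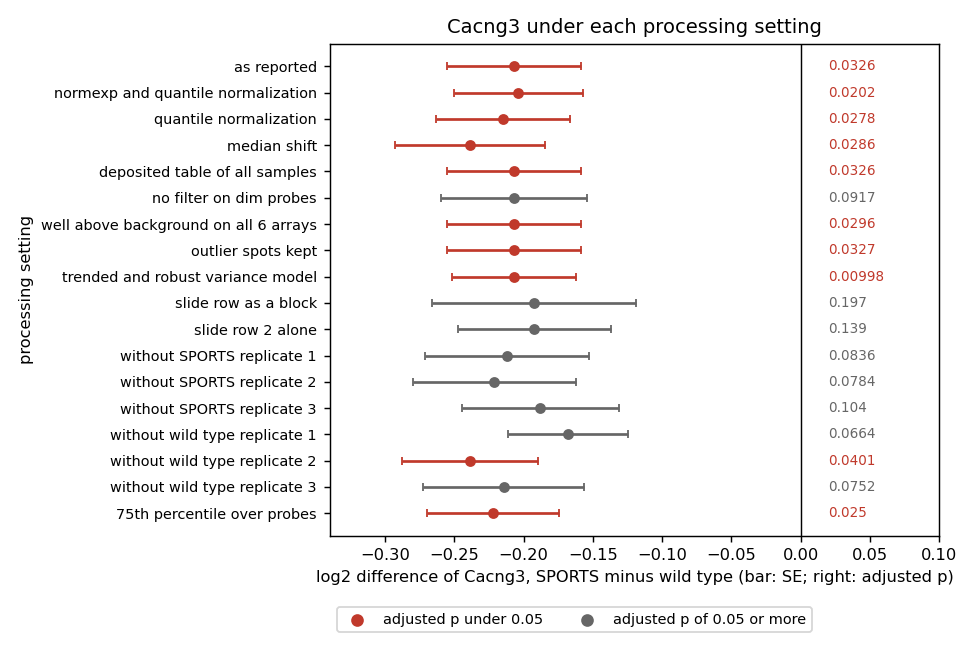
Log2 difference of Cacng3, SPORTS minus wild type, under the reported setting and each of 17 alternatives, with bars for the SE and the adjusted p at the right. Red marks settings with an adjusted p under 0.05. The difference stays between -0.24 and -0.17, while the adjusted p falls on both sides of 0.05.

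Markers of cortex and hippocampus moved with Cacng3. The summed signal of 7 tested cortical and hippocampal markers was 4.12, 4.08 and 3.98 in SPORTS and 4.35, 4.20 and 4.24 in wild type, and these groups did not overlap. Of these markers 0 were higher and 1 was lower, the cortical transcription factor gene Tbr1 (-0.68 ± 0.18, adjusted p = 0.0469), and 3 were lower at an unadjusted p under 0.05. In the block fit, in slide row 2, with quantile normalisation, without the dim filter and without any 1 array, 0 of the 7 were called. Their median difference was -0.11. The median of 7 tested markers of neurons of all regions was -0.10, with 1 higher and 2 lower, and 0 called in the block fit, where 0 were higher and 2 lower at an unadjusted p under 0.05. Striatal markers fell far more, with all 12 lower and a summed signal of 3.53 to 3.69 in SPORTS against 5.08 to 5.30 in wild type. Drd1 was well above background on only 1 SPORTS array. Among probes well above background on all 6 arrays, 11 of 11 striatal markers were lower. All 6 markers of meninges and fibroblasts were higher, with a summed signal of 3.86 to 4.08 in SPORTS against 3.12 to 3.41 in wild type, and 5 of them were called in the block fit, 2 in slide row 2 and 3 without the dim filter. With the same filter on all 6 arrays, 5 of 5 meningeal markers were higher. Astrocyte markers had 3 of 7 higher and 0 lower, and 0 called in the block fit, where 3 were higher at an unadjusted p under 0.05. Hypothalamic markers had 3 of 7 lower and 0 higher, with a median of -0.98, and 1 lower in the block fit. Among probes well above background on all 6 arrays, 2 of 6 were lower. The summed hypothalamic signal was -0.32, 1.24 and 2.63 in SPORTS and 1.76, 3.40 and 3.76 in wild type, and these groups overlapped. Agrp pointed the other way (0.52 ± 0.62, adjusted p = 0.608), and Pmch ran from -3.94 to 2.37 within SPORTS. The largest difference of a hypothalamic marker was that of the vasopressin gene Avp, at -2.78, -2.86 and -2.67 in SPORTS and 0.60, 1.48 and 2.09 in wild type (-4.17 ± 0.36, adjusted p = 0.00151). Oligodendrocyte markers had 2 of 9 higher and 0 lower, endothelial markers 1 of 5 higher and 0 lower, and microglial markers 0 of 6 higher and 1 lower. Over all tested genes 12.9% were higher and 11.4% lower, against which these last 3 lists do not stand out. In bulk brain RNA, fewer cells of a type and less RNA per cell cannot be told apart, and the part of these markers in the Cacng3 difference was not tested.

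**Figure D3:**
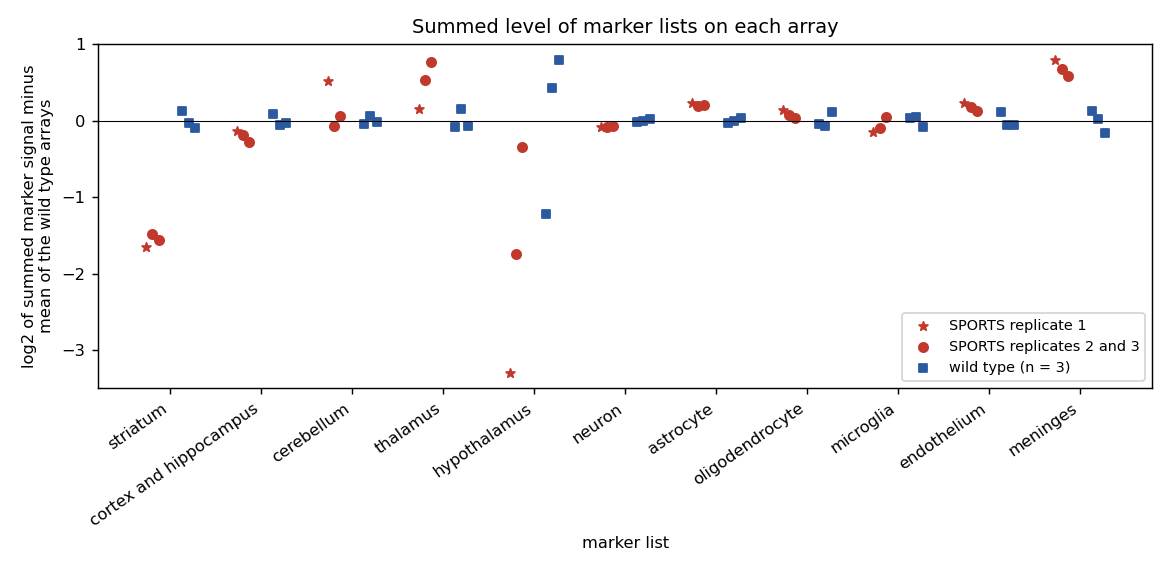
Log2 of the summed normalised signal of each marker list on each array, drawn as the distance from the mean of the wild type arrays. Stars mark SPORTS replicate 1, circles the other SPORTS arrays and squares the wild type arrays. The striatal sum is lower and the meningeal sum higher on every SPORTS array, and SPORTS replicate 1 stands above all arrays on the cerebellar sum.

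By Pearson correlation over the 6 arrays, the tested genes with the profile most like that of Cacng3 were Wdr12, Rab15 and Sarnp, with r of 0.997, 0.995 and 0.994. Each was at a lower mean in SPORTS, by 0.15, 0.24 and 0.21, and Rab15 (adjusted p = 0.0205) and Sarnp (adjusted p = 0.0363) were called. Wdr12 was not (adjusted p = 0.0594). The 6 points are the same arrays for every gene and fall into the 2 groups of rats. Because Cacng3 separates these groups, a lower SPORTS mean follows from picking genes by likeness to it and is no separate result.

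The rest of the subunit family held more calls than the members. Of 16 other subunit genes 11 were tested with 13 probes, 5 genes were lower in SPORTS and 0 higher, and the median difference was -0.13. Over all 11033 tested genes 11.4% were lower, 12.9% higher and 24.3% either. No other subunit gene was higher at an unadjusted p under 0.05 in limma. In the block fit 2 genes were lower, and without any 1 SPORTS array 4 were. All 13 probes had a difference below 0, against 50.4% of all tested probes and 11 of the 14 member probes. The number of member probes below 0 was 12 with quantile normalisation, a median shift or normexp, and 9 to 12 when 1 array was left out, where the other subunits had 10 to 13 of 13.

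**Figure D4:**
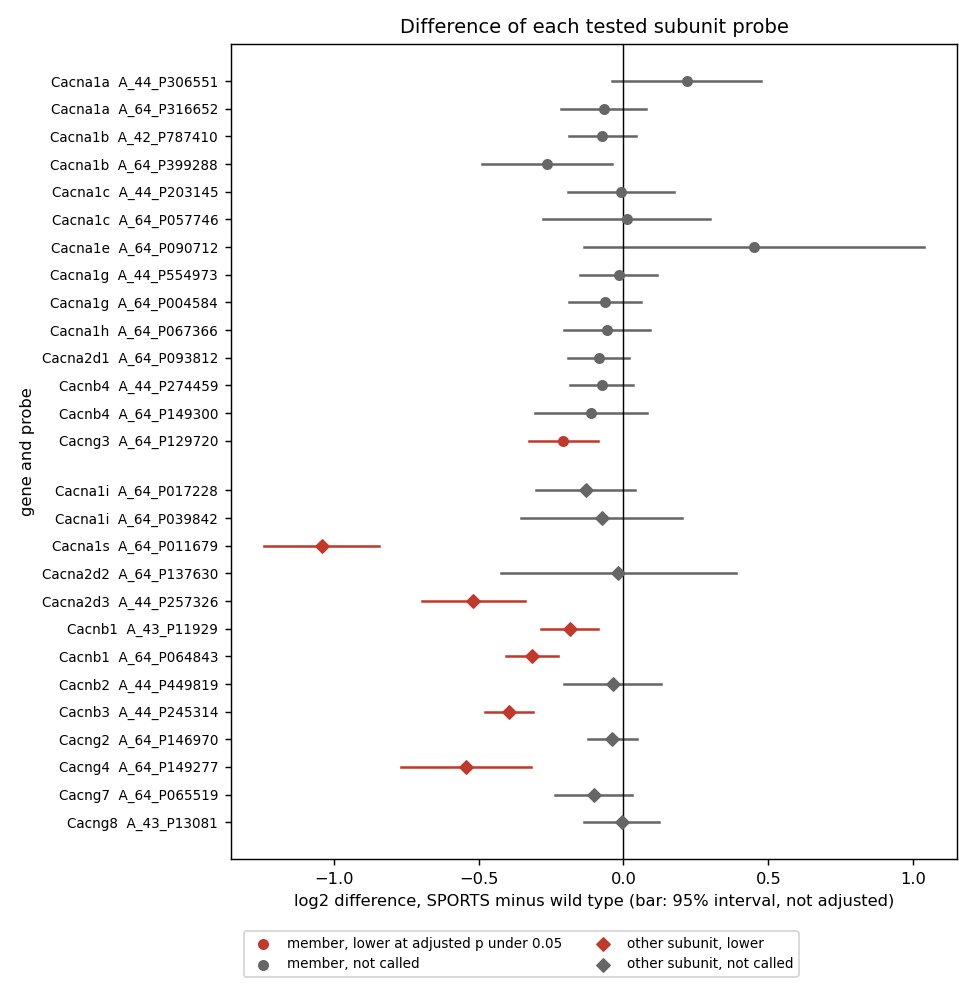
Log2 difference, SPORTS minus wild type, of each tested subunit probe with its unadjusted 95% interval. Circles are the 14 member probes and diamonds the 13 probes of other subunit genes, and red marks an adjusted p under 0.05. Only Cacng3 is red among the circles, against 6 red diamonds, all left of 0.

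The beta subunits bind the pore inside the cell and set how many channels reach the membrane. Cacnb3 read 3.10, 3.12 and 3.06 in SPORTS and 3.50, 3.47 and 3.49 in wild type. The groups were far apart for their spread, and the fall was 0.39 ± 0.03 on the log2 scale, 1.31-fold (adjusted p = 0.00148). It passed in all 17 alternatives, the block fit for slide row included (-0.40, adjusted p = 0.0209). Cacnb1 had 2 probes that were both lower. Its probe A_64_P064843 read -1.21, -1.20 and -1.20 in SPORTS and -0.85, -0.94 and -0.88 in wild type (-0.31 ± 0.04, adjusted p = 0.00355), and it passed in all 17 alternatives. The other Cacnb1 probe, A_43_P11929, fell by 0.19 ± 0.04 (adjusted p = 0.0259), and lost its call in 8 of 17 alternatives. Cacnb2 differed by -0.04 ± 0.07 (adjusted p = 0.746). With Cacnb4 from the member list, 2 of the 4 beta subunit genes were called, where 24.3% of all tested genes were.

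Cacna2d3, another alpha-2-delta gene, read -0.79, -0.88 and -0.80 in SPORTS and -0.16, -0.33 and -0.42 in wild type. It fell by 0.52 ± 0.07, 1.43-fold (adjusted p = 0.00652), and lost its call in the block fit (-0.40, adjusted p = 0.0582) and in slide row 2 (adjusted p = 0.0521). Cacna2d2 did not pass, at -0.02 ± 0.16 (adjusted p = 0.951), and Cacna2d4 was above background on none of the arrays. Whether Cacna2d1 and Cacna2d3 differ in their response was not tested.

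Cacna1s, the pore of the skeletal muscle L-type channel, had the largest called difference of the family. Its dim probe read -4.61, -4.54 and -4.44 in SPORTS, against -3.35, -3.61 and -3.52 in wild type. The groups were well apart, and the fall was 1.04 ± 0.08, 2.06-fold (adjusted p = 0.00104). It passed in all 17 alternatives, but with normexp the difference was -0.65. The third T-type pore gene, Cacna1i, did not pass with either probe (-0.13 ± 0.07, adjusted p = 0.246, and -0.07 ± 0.11, adjusted p = 0.692). Cacna1f, the retinal L-type pore, was above background on none of the arrays.

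Of the other gamma subunit genes, Cacng4, an AMPA receptor partner like Cacng3, was lower in SPORTS. Its dim probe read -5.27, -5.20 and -5.15 in SPORTS and -4.51, -4.63 and -4.85 in wild type (-0.54 ± 0.09, adjusted p = 0.0119). It lost its call in the block fit (-0.36, adjusted p = 0.0637) and in slide row 2 (adjusted p = 0.0711), and with normexp the difference was -0.27. Cacng2, the stargazin gene, differed by -0.04 ± 0.03 (adjusted p = 0.484). Cacng8 and Cacng7 differed by -0.01 ± 0.05 and -0.10 ± 0.05 (adjusted p = 0.945 and 0.241). Cacng5 and Cacng6 were above background on too few arrays to be tested. The muscle channel gene Cacng1 was not well above background on any SPORTS array and was so on 2 of 3 wild type arrays with both of its probes. Its means were -8.06 in SPORTS and -6.16 in wild type with 1 probe, and -6.59 and -5.43 with the other. Cacng1 entered the fit only without the filter on dim probes, where the adjusted p was 0.0127 and 0.117. Each Cacng1 wild type mean was also set against the lowest signal well above background on each SPORTS array. Where the probe's own signal was higher, that signal was used. The wild type means were 1.06-fold and 1.58-fold above these levels. Those folds are not lower bounds, because each wild type mean includes an array that was not well above background.

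**Figure D5:**
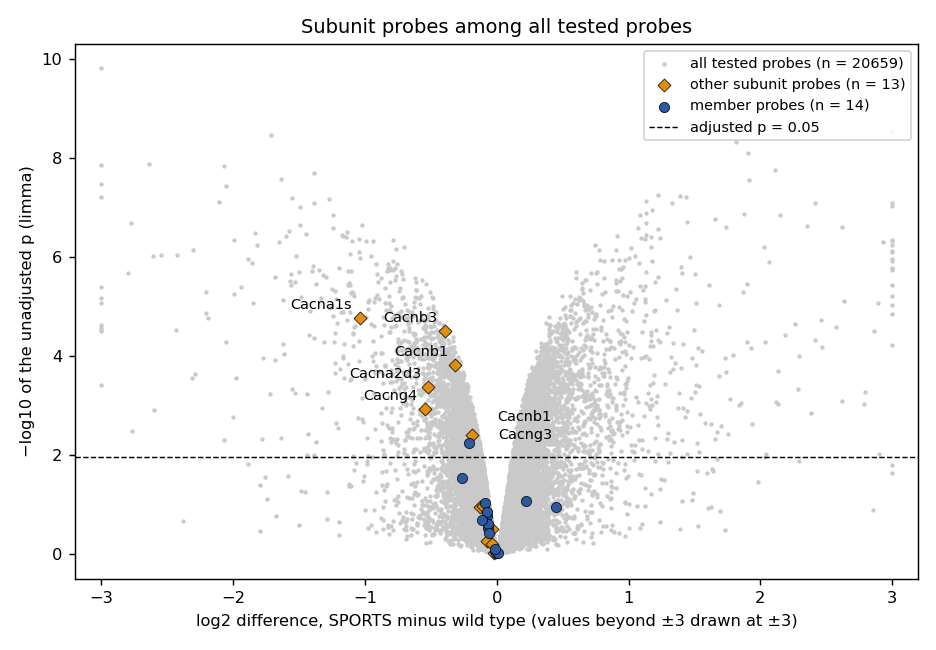
Log2 difference, SPORTS minus wild type, against −log10 of the unadjusted limma p for all 20659 tested probes (grey), the 14 member probes (blue circles) and 13 probes of other subunit genes (orange diamonds). Above the dashed line the adjusted p is under 0.05. The line is passed by Cacng3 alone among the members and by probes of Cacna1s, Cacnb3, Cacnb1, Cacna2d3 and Cacng4 among the others.

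Of 9 tested regulators and presynaptic partners of the channels 4 were lower and 0 higher, with a median of -0.08, against 11.4% lower, 12.9% higher and a median of 0.01 over all tested genes, and 0 were higher at an unadjusted p under 0.05. Cabp1, a calmodulin-like regulator of the pore, fell by 0.51 ± 0.08 (SE, adjusted p = 0.00806). Erc2, an active zone scaffold gene, fell by 0.36 ± 0.09 (adjusted p = 0.0388), Rem2, a small GTPase gene that inhibits the channels, by 0.32 ± 0.06 (adjusted p = 0.0187) and Akap5, which anchors kinases at L-type channels, by 0.32 ± 0.05 (adjusted p = 0.0106). In the block fit 0 of the 9 were called and 3 were lower at an unadjusted p under 0.05. Without any 1 SPORTS array 2 were lower.

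Calcium release channels, pumps and exchangers had 7 of 19 tested genes lower and 1 higher, with a median of -0.14, where 11.4% of all tested genes were lower and 12.9% higher. The 1 higher gene was the pump gene Atp2b3 (0.24 ± 0.03, adjusted p = 0.00571). Slc8a2, a sodium-calcium exchanger gene, fell by 0.59 ± 0.10 (SE, adjusted p = 0.0125). The ryanodine receptor gene Ryr2 fell by 0.37 ± 0.07 (adjusted p = 0.0155), the plasma membrane pump gene Atp2b1 by 0.34 ± 0.05 (adjusted p = 0.00955) and the inositol trisphosphate receptor gene Itpr1, abundant in Purkinje and striatal neurons, by 0.32 ± 0.08 (adjusted p = 0.0335). In the block fit 0 of the 19 were called, and 1 was higher and 7 lower at an unadjusted p under 0.05. Without SPORTS replicate 3, 2 were lower and 2 higher, and without SPORTS replicate 2, 4 were lower.

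Among 22 calcium sensors, calmodulin-dependent enzymes and calcium-binding proteins, 5 were lower and 2 higher, with a median of 0.02, so 7 of 22 were called where 24.3% of all tested genes were. The kinase genes Camkk2 and Camk4, which relay calcium signals to transcription, fell by 0.76 ± 0.08 and 0.65 ± 0.11 (adjusted p = 0.00300 and 0.0135). The neuronal calcium sensor gene Hpcal1 and the calmodulin-dependent kinase gene Camk2d rose by 0.51 ± 0.09 and 0.46 ± 0.05 (adjusted p = 0.0119 and 0.00263). In the block fit 1 was lower and 1 higher. The striatal, cortical and meningeal marker sums given above differ between the same arrays, and their part in these counts was not tested.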

How the data were processed

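Brain RNA of each rat was hybridised to 1 array, all on 1 slide, with the row read from the header's barcode position. Per the file headers, the intensity of each spot was background-subtracted and detrended within its array, with no scaling between arrays. The submitters' processing notes name Agilent Feature Extraction, version 10.10.1.1. In the deposited summary file the intensity values equal these times a constant for each array (1.38 to 1.47). The array design uses build rn4 and the gene list GRCr8, so no probe positions are given.

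The processed signal was put on the log2 scale, averaged over a probe's spots without outlier flags, and set to 0 at the array's 75th percentile over spots (1530 to 1628 before log2). Testing required a share above 0.5 of a probe's spots to exceed background on every array of either group, which 20659 of 30367 probes met. Each array had 20325 to 23261 probes above background. Accessions were matched to RefSeq genes, and a list counts the probe with the highest mean for each gene. SPORTS and wild type were compared with limma 3.58.1 in R 4.3.3 (two-sided, Benjamini-Hochberg over all tested probes), with files read by the data.table package (version 1.17.8), after the procedure was tested on simulated data. Errors given for differences are limma's SE, and precision is limited by having 6 arrays. The labels do not say how the rats relate beyond their group.

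The members, the lists and the rule for named genes (all members, tested other subunit genes, the 4 largest called differences of each further list, up to 2 called genes of each marker list with Pcp2 and Car8, and the 3 genes most like the called member) were chosen with earlier results of these data known. Atp2b3, Gabra6 and the folds of Cacng1 were picked after their values were seen. Marker lists are given mainly by their counts, and called markers that no subunit result turns on are not all named.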

Additional observations from a re-analysis of the deposited data

How the results depend on the processing

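Results were recomputed with normexp correction plus quantile normalisation, with quantile normalisation alone, after a median shift, and from the deposited table. Probe filters were dropped or tightened to all 6 arrays, outlier spots were kept, the variance model was made trended and robust, slide row was fitted as a block or held to row 2, and each array was left out. The 75th percentile over probes was added after seeing the data. Over all tested probes, where 2284 were higher and 2081 lower, dropping the filter gave 1234 higher and 1108 lower, the slide row block 740 and 856, and row 2 alone 598 and 621. Leaving out 1 array gave 1356 to 1787 higher and 1123 to 1558 lower. Of the member probes, normexp called 2 lower, and no filter, the slide row block and row 2 alone called 0 lower in limma, with 2, 2 and 1 lower at an unadjusted p under 0.05. Leaving out 1 array called 0 to 1 member probes lower, and 0 were higher under every alternative run. Of the 27 single subunit probes tested, none was called in the opposite direction under any alternative run. In a block fit the difference equals that within row 2. The leave-one-out and row 2 fits hold fewer arrays, and the cause of the lost calls was not tested. No paired analysis was possible because the replicate numbers of the 2 groups follow the order of the accessions and name no shared litter or day.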
